A study of Mus musculus with 6 samples.

Results

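Fos-positive astrocytes of the mouse amygdala were the astrocytes in which at least 1 UMI of *Fos* had been counted, 280 of 8136 astrocytes among 13546 cell barcodes of single-cell RNA sequencing. A UMI, or unique molecular identifier, stands for 1 captured RNA molecule. A barcode was taken as an astrocyte if it had at least 500 genes, under 6% of its UMIs from mitochondrial genes, at least 20 UMIs of *Slc1a2* and *Slc1a3* together, which encode the glial glutamate transporters, and at most 3 UMIs of the pericyte genes *Vtn* and *Rgs5* together. No hashtag call was needed. Because the members were chosen by their *Fos* UMIs, *Fos* itself is given as a description and was left out of every test across genes.

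*Fos* is an immediate early gene: its transcription starts within minutes of a stimulus and needs no newly made protein, and its product pairs with Jun proteins to form the AP-1 transcription factor. In astrocytes it is known to be induced by receptors that raise calcium or cyclic AMP, among them the adrenoreceptors for noradrenaline. Astrocytes themselves clear glutamate from synapses, buffer potassium, and supply neurons with lactate and cholesterol.

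The cells came from young adult mice, labelled as male wildtype C57BL/6N, in 4 groups. NoFC mice received no shock, FC mice were fear conditioned with foot shocks, NoFR mice were conditioned and then kept in the home cage without recall, and FR mice were returned to the conditioned context on the day after conditioning. The amygdala was dissected 90 min after the behaviour began and dissociated with papain in actinomycin D and triptolide, which block transcription, and anisomycin, which blocks translation. Cells were sorted after staining with ACSA-2, an antibody to the sodium pump subunit ATP1B2, and with antibodies to CD11b, CD45 and O1. The cells of each mouse were stained with a hashtag antibody and pooled in 3 libraries. The deposited hashtag table lists 16 mice, 4 per group. It puts 2 mice of each group in library 1. In library 2 it lists 2 FC mice and a single mouse of NoFC and of FR, and in library 3 it lists 2 NoFR mice and a single mouse of NoFC and of FR. A library was thus a mixture of groups and not a condition. Of 2771 astrocytes with a single hashtag, 878 carried one that the table does not list for their library, 157 in library 1, 345 in library 2 and 376 in library 3, and the mice behind these are not known here.

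There were 5287 barcodes with 42350059 UMIs in library 1, 3631 with 31700569 in library 2 and 4628 with 33368825 in library 3. The members were 83 of 3316 astrocytes in library 1, 89 of 2340 in library 2 and 108 of 2480 in library 3. Their median depth was 12838, 11918 and 11993.5 UMIs per cell, against 9938, 10586 and 10192.5 in the Fos-negative astrocytes of the same libraries. Barcode sequences shared between libraries numbered 18, and 2 members carried one of them. By their hashtags, 102 members were singlets, 43 were doublets and 135 were negative. Hashtag doublets made up 15.4% of members and 16.4% of Fos-negative astrocytes, and Scrublet, which simulates doublets, marked no member and 5 Fos-negative astrocytes.

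The members carried the markers of astrocytes. All 30 genes of a list of astrocyte identity genes were detected in them, and the list summed to 622, 641 and 598 of every 10000 UMIs in libraries 1, 2 and 3. The list holds *Slc1a2* and *Slc1a3*, which the rule required and which gave 33752 and 14986 of its 228509 UMIs, so that part of the sum was set by the selection. *Apoe*, the main lipid carrier of astrocytes, was the most abundant of these genes. The lists of other cell types were near 0: per 10000 UMIs, neuronal genes summed to 0.554 to 0.852, microglial genes to 0.402 to 0.528, endothelial genes to 0.239 to 0.304 and pericyte genes to 1.66 to 2.15. The rule limited the pericyte genes *Vtn* and *Rgs5*, so the pericyte sum was partly set by the selection too. Of the 12 microglial markers 9 were at 0 in the members, as were 6 of the 11 endothelial, 5 of the 10 oligodendrocyte, 4 of the 8 OPC, 3 of the 6 fibroblast, 3 of the 6 ependymal, 4 of the 10 progenitor, 3 of the 13 pericyte and 1 of the 17 neuronal markers.

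The gene behind the selection lies on chromosome 12, and the 300 bases around its start, from 250 before to 50 after it, are shown because they hold the sequence through which cyclic AMP and calcium act on *Fos*. The sequence was taken from RefSeq on build GRCm38.p6, plus strand, chr12:85473640-85473939. Capitals mark TGACG, the shorter form of the cyclic AMP response element, searched as TGACG on both strands. It occurs at 129 and at 66 bases before the start.
Fos: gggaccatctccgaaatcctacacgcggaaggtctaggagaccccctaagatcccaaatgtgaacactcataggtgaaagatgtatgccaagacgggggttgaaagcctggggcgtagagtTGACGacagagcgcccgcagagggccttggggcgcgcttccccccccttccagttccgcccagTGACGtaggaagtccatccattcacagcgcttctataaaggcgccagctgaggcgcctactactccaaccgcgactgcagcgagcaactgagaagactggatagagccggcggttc
These 5 letters are common, since 20.8% of 32851 RefSeq promoter windows of the same length hold them. The full element, TGACG followed by TCA, and the AP-1 motif, TGAGTCA or TGACTCA, were not in this window.

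*Fos* was detected at very low counts. Of the 280 members, 235 had 1 *Fos* UMI, 36 had 2 and 9 had 3 or more, with 4 as the highest, and all members together held 336. *Fos* was seen in 2.50% of the astrocytes in library 1 (95% Wilson interval 2.02 to 3.09), 3.80% in library 2 (3.10 to 4.66) and 4.35% in library 3 (3.62 to 5.23). These intervals and those that follow cover counting error only.

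The share grew with depth. In library 1 it was 0.844, 1.69, 2.53 and 4.95% from the lowest to the highest quartile of UMIs per cell. In library 2 the same quartiles held 2.22, 3.59, 4.27 and 5.13%, and in library 3 they held 2.42, 2.90, 5.00 and 7.10%. When cells were thinned to 8000 UMIs, the shares were 1.77% of 2315 cells, 2.29% of 1791 and 3.11% of 1802, with 1001, 549 and 678 shallower cells left out. Libraries thus kept their order after thinning.

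Pericytes of the same libraries gave the background of *Fos* RNA in cells outside the astrocyte class. Barcodes with at least 20 UMIs of *Vtn* and *Rgs5* and at most 3 of *Slc1a2* and *Slc1a3* held a *Fos* UMI in 1 of 832, 1 of 624 and 3 of 678, or 0.120% (0.0212 to 0.678), 0.160% (0.0283 to 0.902) and 0.442% (0.151 to 1.29). Their median depths of 4878, 5234 and 5052 UMIs lay somewhat below those of the shallowest astrocyte quartile, at 6120, 6632 and 6267.5 UMIs. At that nearest depth the astrocyte share was higher than the pericyte share in each library, as the plot of *Fos* detection against depth shows.

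**Figure D1:**
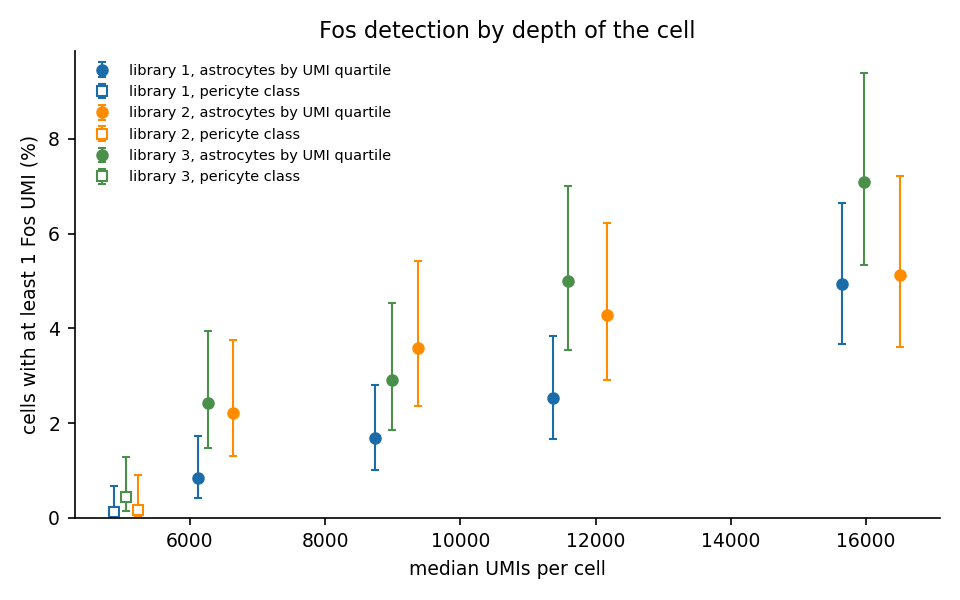
Share of cells with at least 1 Fos UMI (y axis, percent) against the median UMIs per cell (x axis) in 3 libraries. Filled points are quartiles of astrocytes by UMIs, open squares are pericytes, and bars are 95% Wilson intervals; the share rises from 0.844 to 4.95% over the quartiles of library 1 and is at most 0.442% in pericytes.

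Some members lay at the astrocyte limits. Their lowest sum of *Slc1a2* and *Slc1a3* was 20 UMIs and the median 156, with 5 members between 20 and 39. *Vtn* and *Rgs5* were at 0 in 245 members and at 3 in 0. The highest mitochondrial share was 5.95%, with 3 members between 5 and 6%. Just outside, 11 Fos-positive barcodes with enough genes and few enough mitochondrial UMIs were not astrocytes by the rule: 1 had too few transporter UMIs, 4 had too many pericyte UMIs and 6 had both. A further 6 Fos-positive barcodes did not meet those limits, 4 of them with the astrocyte markers.

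To compare the rest of the transcriptome at equal depth, each member was matched with the 5 Fos-negative astrocytes of its library nearest in total UMIs, 1400 cells in all, and counts were summed per library and *Fos* status. After matching, the median depths were 12838 and 12836 UMIs in library 1, 11918 and 11914 in library 2, and 11993.5 and 11988.5 in library 3. Members had slightly more genes per cell, with means of 4033 against 3939, 3876 against 3828 and 3963 against 3868. Mitochondrial UMIs averaged 2.00 against 2.04%, 2.23 against 2.08% and 1.99 against 2.08%, so neither side was above the other in all libraries. Markers of oligodendrocytes summed to 1.06, 1.07 and 0.993 of every 10000 UMIs in members against 0.861, 0.851 and 0.846 in matched astrocytes, mostly *Cnp*. Those of OPCs (oligodendrocyte precursor cells) were at 0.893, 0.841 and 1.06 against 0.748, 0.832 and 0.938, mostly *Vcan*, endothelial markers at 0.304, 0.303 and 0.239 against 0.209, 0.237 and 0.187, mostly *Pltp*, and ependymal markers at 0.491, 0.485 and 0.493 against 0.374, 0.447 and 0.418, mostly *Rarres2*. Members were thus higher in each library for these 4 lists, and lower for markers of progenitors, at 2.43, 2.54 and 3.08 against 4.14, 3.97 and 4.87. *Egfr* held 879 of the 1002 progenitor UMIs in members and 5288 of 8019 in matched astrocytes.

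Ribosomal protein genes took a larger share of UMIs in members, with means per cell of 1.61 against 1.42%, 1.43 against 1.27% and 1.63 against 1.33% in libraries 1 to 3. The difference had the same sign in 3 of 3 libraries and averaged 0.217 ± 0.0781 percentage points (SD, n = 3 libraries; 2-sided exact permutation p = 0.25, the smallest value that 3 pairs allow). The share moved with most of the gene differences given below, so a second matching, chosen after seeing the data, was made on total UMIs and on ribosomal share together, and its values are given for the genes called in both matchings and for the main genes called in the first. In that matching the ribosomal shares were 1.61 against 1.60%, 1.43 against 1.42% and 1.63 against 1.60%.

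Of 11921 genes tested with edgeR's quasi-likelihood test, with the library as a block and Benjamini-Hochberg adjustment, 222 were higher in members (1.86%) and 195 were lower (1.64%) at an adjusted p under 0.05. DESeq2 called 100 higher and 46 lower. With the ribosomal share also matched, the counts were 5 higher (0.0423%) and 3 lower (0.0254%) of 11809 genes, of which 4 and 3 were among the former. The genes called in both matchings are described first. Of those 7, *Pde10a* and *Stxbp6* were also called when the second matching was combined with equal weights for all cells, by limma, while *Gria1*, *Cdh4*, *Unc13c*, *Rspo3* and *Flrt2* were not (adjusted p of 0.162 to 0.892).

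The higher gene with the smallest p was *Pde10a*, a phosphodiesterase that breaks down cyclic AMP and cyclic GMP. Its level was 191 UMIs per 1000000 (CPM) in members and 127 in matched astrocytes of library 1, 442 and 253 in library 2, and 192 and 114 in library 3. Members were higher within each of the 3 libraries, although the matched cells of library 2 exceeded the members of libraries 1 and 3. The log2 fold change was 0.73 ± 0.07 (SE), or 1.66-fold (edgeR, adjusted p = 4.46e-10). After matching on ribosomal share it was 0.67 ± 0.07 (edgeR, adjusted p = 5.11e-13).

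*Pde10a* was carried by a minority of the cells. It was detected in 32.5% of members and 26.3% of matched astrocytes in library 1, in 49.4 and 33.5% in library 2, and in 17.6 and 18.7% in library 3. Cells with 10 or more *Pde10a* UMIs were 31 of 280 members (11.1%) and 95 of 1400 matched astrocytes (6.79%). In library 3 the higher level in members thus came with no higher share of cells detected. With mice in place of libraries as replicates, in the smaller number of cells with a hashtag call, the log2 fold change of *Pde10a* turned to -0.20. The gene lies on chromosome 17, chr17:8525372-8986648 on GRCm38.

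*Gria1*, which encodes an AMPA-type glutamate receptor subunit, was lower in members. Its level was 83.2 CPM in members against 111 in matched astrocytes of library 1, 49.8 against 159 in library 2 and 99.3 against 166 in library 3. All 3 member values lay below all 3 matched values, and the gap was widest in library 2. The log2 fold change was -0.90 ± 0.12 (edgeR, adjusted p = 4.47e-07), and -0.68 ± 0.10 after matching on ribosomal share (edgeR, adjusted p = 1.71e-06). Again a minority of cells carried it: 9 members (3.21%) and 95 matched astrocytes (6.79%) had 10 or more *Gria1* UMIs. It was detected in 27.7% of members and 23.6% of matched cells in library 1, in 16.9 and 26.1% in library 2, and in 27.8 and 30.9% in library 3, so in library 1 more members than matched cells had a UMI.

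The other genes called in both matchings were named after their values were seen. *Rspo3*, which encodes a secreted amplifier of Wnt signalling, was at 7.23, 7.11 and 11.8 CPM in members and at 2.35, 1.40 and 1.83 CPM in matched astrocytes. It rested on few molecules, 33 UMIs in 19 of 280 members (6.79%) and 25 of 1400 matched cells with a UMI (1.79%). Its log2 fold change was 2.24 ± 0.44 (edgeR, adjusted p = 0.000847), and 2.14 ± 0.44 with the ribosomal share matched (0.00443). At these levels *Rspo3* passed the filter on low counts through the members, where it is high, so its test is a description only. *Stxbp6*, encoding a SNARE-binding protein, was at 144, 180 and 169 CPM against 139, 114 and 124, a log2 fold change of 0.39 ± 0.09 (edgeR, adjusted p = 0.00558), and 0.46 ± 0.08 with the ribosomal share matched (0.00041). *Flrt2*, an adhesion protein gene, had a log2 fold change of 0.37 ± 0.10 (edgeR, adjusted p = 0.0318), and 0.45 ± 0.10 with the ribosomal share matched (0.0405).

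Among the lower genes, *Cdh4*, which encodes a cadherin, was at 38.9, 30.2 and 26.4 CPM in members and at 55.8, 54.4 and 54.4 CPM in matched astrocytes. Its log2 fold change was -0.80 ± 0.15 (edgeR, adjusted p = 0.000318), and -0.65 ± 0.15 with the ribosomal share matched (0.0493). *Unc13c*, a member of the Munc13 family of exocytosis proteins, was at 48.8, 39.1 and 20.8 CPM against 49.5, 63.2 and 64.8, so library 1 showed almost no difference. Its log2 fold change was -0.76 ± 0.16 (edgeR, adjusted p = 0.00289), and -0.70 ± 0.15 with the ribosomal share matched (0.00757). Leaving out single libraries, its log2 fold change ranged from -1.15 to -0.36, and without library 3 its adjusted p by edgeR was 0.365. *Rspo3* also missed the threshold without library 3 (edgeR, adjusted p = 0.0676). *Flrt2* missed it without library 2 (0.157) or library 3 (0.347), and *Stxbp6* without library 2 (0.196) or library 3 (0.0703), all by edgeR's adjusted p. *Nkain2*, with a log2 fold change of 0.18 ± 0.07 (edgeR, adjusted p = 0.182), was called only after matching on ribosomal share, at 0.37 ± 0.07 (edgeR, adjusted p = 0.000547).

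The other higher genes with small p were called only in the first matching. *Id3*, an inhibitor of DNA binding downstream of BMP signals, was at 211 CPM in members and 138 in matched astrocytes of library 1, 199 and 119 in library 2, and 268 and 170 in library 3. All 3 member values exceeded all 3 matched values, and the log2 fold change was 0.67 ± 0.08 (edgeR, adjusted p = 1.20e-08). *Id3* was detected in 62.5% of members and 49.9% of matched cells. *Hes5*, a Notch effector, was at 713, 568 and 700 CPM against 528, 468 and 478, a log2 fold change of 0.43 ± 0.06 (edgeR, adjusted p = 9.57e-07). *Sox9*, a transcription factor of glial identity, was at 460, 436 and 564 CPM against 355, 344 and 379, a log2 fold change of 0.44 ± 0.06 (edgeR, adjusted p = 2.24e-06). *Id2* had a log2 fold change of 0.40 ± 0.06 and *Id4* one of 0.35 ± 0.06. Of 10 *Id* and *Hes* genes tested, a list put together after seeing the data, 5 were higher and 0 were lower. Over all genes tested 1.86% were higher and 1.64% were lower. The median log2 fold change of the list was 0.38, against 0.002 over all genes tested. Because the list was put together after seeing the data, its count and its median are no independent evidence. With the ribosomal share matched, 0 of the 10 were called.

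Metallothioneins bind zinc and copper. *Mt3*, the brain form, was at 3044, 2780 and 2671 CPM in members and at 2247, 2306 and 2163 CPM in matched astrocytes. *Mt1* was at 3742, 3620 and 3399 CPM against 2990, 3076 and 2678. Neither gene overlapped between the groups, and the log2 fold changes were 0.34 ± 0.05 for *Mt3* (edgeR, adjusted p = 1.34e-06) and 0.30 ± 0.04 for *Mt1* (edgeR, adjusted p = 7.89e-06). *Mt2* had a log2 fold change of 0.24 ± 0.06. Of the calcium-binding S100 proteins, *S100a13* and *S100a16* had log2 fold changes of 0.49 ± 0.07 and 0.47 ± 0.07, and *Gstm1*, a glutathione transferase, had one of 0.34 ± 0.06. Without library 2 *Mt2* was not called (edgeR, adjusted p = 0.118).

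Over all genes tested 1.86% were higher and 1.64% lower. Among glycolysis, glycogen and lactate genes 5 of 22 tested were higher and 0 lower, with a median log2 fold change of 0.19. They were *Gapdh*, at 1043, 972 and 970 CPM in members and 842, 768 and 774 in matched astrocytes (0.32 ± 0.05), *Aldoa* (0.35 ± 0.07), the lactate dehydrogenases *Ldha* (0.47 ± 0.13) and *Ldhb* (0.28 ± 0.06), and *Ppp1r3g*, which directs a phosphatase to glycogen (0.53 ± 0.12). The brain aldolase *Aldoc*, counted with astrocyte identity, was at 2605, 2312 and 2278 CPM against 2018, 1853 and 1797, a log2 fold change of 0.34 ± 0.05 (edgeR, adjusted p = 7.44e-07). Of 22 cholesterol synthesis and lipid genes 3 were higher, *Msmo1* (0.30 ± 0.06), *Idi1* (0.39 ± 0.09) and *Hmgcs1* (0.28 ± 0.08), and 0 were lower, with a median of 0.15. The call of *Ldha* was lost whichever library was left out, those of *Ldhb* and *Ppp1r3g* without library 1, and those of *Hmgcs1* and *Idi1* without library 2, with edgeR's adjusted p between 0.0565 and 0.506.

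Of the 30 astrocyte identity genes 13 were higher, 0 were lower and 28 had a positive log2 fold change, with a median of 0.15. All genes tested gave 1.86% higher and 1.64% lower. *Apoe* was at 12619, 12831 and 11482 CPM in members and 10465, 10867 and 9865 in matched astrocytes, a log2 fold change of 0.24 ± 0.04 (edgeR, adjusted p = 8.19e-05). *Clu* (0.27 ± 0.05), the water channel *Aqp4* (0.26 ± 0.06), glutamine synthetase *Glul* (0.22 ± 0.05) and *Atp1b2*, which encodes the antigen of the sort (0.24 ± 0.05), were also among those higher. *Aldoc*, *Sox9*, *Cst3*, *Gpr37l1*, *Htra1*, *Mfge8* and *Ppp1r3c* were higher too, of which *Mfge8* was not called without library 1, *Ppp1r3c* without library 2 and *Gpr37l1* without library 2 or 3. *Slc1a2* and *Slc1a3*, which the rule used, had log2 fold changes of 0.09 ± 0.04 and 0.10 ± 0.04. *Gfap*, the intermediate filament of astrocytes and 1 of 8 reactive astrocyte genes tested, was the single one of them called, at 46.1, 39.1 and 40.3 CPM in members and 21.7, 25.0 and 23.5 in matched astrocytes. Its log2 fold change was 0.83 ± 0.16 (edgeR, adjusted p = 0.000547), and 0.63 ± 0.16 after matching on ribosomal share (edgeR, adjusted p = 0.0868).

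The size of these differences depended on the ribosomal share. Matched on it, *Id3* had a log2 fold change of 0.20 ± 0.07 (edgeR, adjusted p = 0.533), *Sox9* one of 0.21 ± 0.06 (0.192), *Aldoc* 0.06 ± 0.04 (0.961), *Gapdh* 0.03 ± 0.05 (0.986) and *Mt1* -0.03 ± 0.04 (0.984). The log2 fold changes of *Hes5*, *Id2* and *Id4* were then 0.10, 0.18 and 0.09, those of *S100a13*, *S100a16* and *Gstm1* 0.14, 0.22 and 0.02, and those of *Mt3*, *Mt2* and *Apoe* 0.00, -0.07 and -0.03. *Ldha* was at 0.22, *Ldhb* at 0.04, *Aldoa* at 0.09, *Ppp1r3g* at 0.25, *Msmo1* at 0.16, *Idi1* at 0.20 and *Hmgcs1* at 0.15, while *Clu*, *Aqp4*, *Glul* and *Atp1b2* were between 0.02 and 0.09. Of the 55 called genes of the lists, 53 were not called in that matching. Of the 12 higher genes with the smallest p, *Pde10a* was the single one still called, as the plot of these genes under both matchings shows. What lies behind the ribosomal share was not tested. With mice as replicates the log2 fold changes of *Id3*, *Mt2*, *Apoe* and *Aqp4* also turned sign, to between -0.01 and -0.10.

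**Figure D2:**
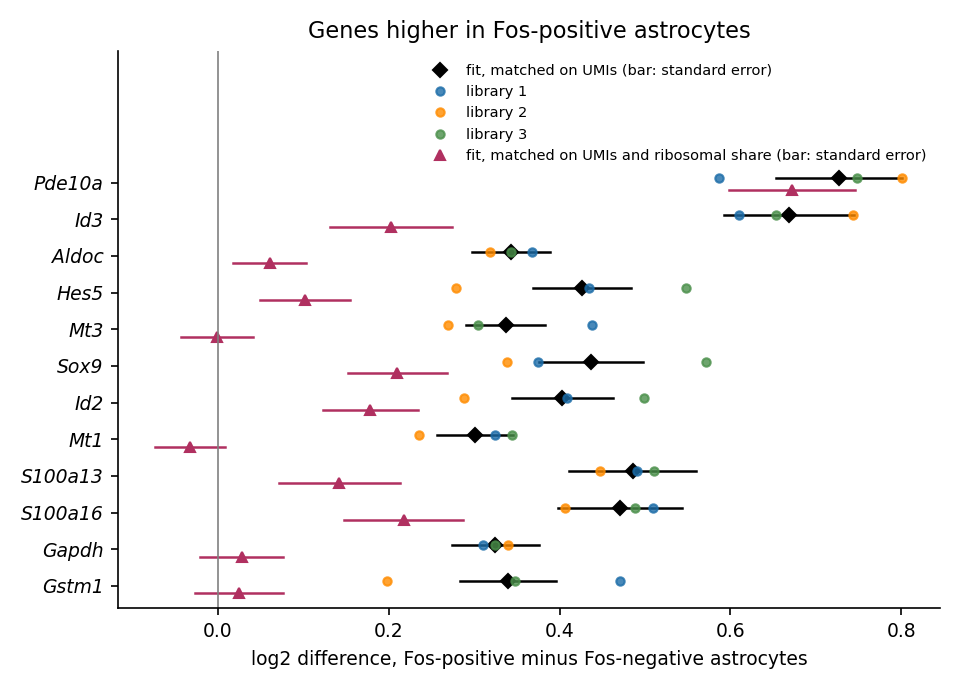
Log2 difference between Fos-positive and Fos-negative astrocytes (x axis) of the 12 higher genes with the smallest p. Circles are the 3 libraries, diamonds and triangles are fits with standard errors for matching on UMIs alone and on UMIs with the ribosomal share; Pde10a stays near 0.7 in both, while Mt3 and Mt1 turn to about 0 or just below it, at 0.00 and -0.03, in the second.

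The differences ran along gene length, measured as the span of the gene in the annotation. With the genes split into quintiles by length, the median log2 fold change from the shortest to the longest was 0.12, 0.08, 0.03, -0.04 and -0.11. The higher genes had a median span of 8.82 kb, the lower genes 158 kb and all genes tested 25.7 kb. Of the 195 lower genes 121 were in the longest quintile, and of the 222 higher genes 109 were in the shortest. Of 7 nuclear and RNA quality genes *Kcnq1ot1*, a nuclear antisense transcript, was lower (-0.41 ± 0.08) and *AY036118* was higher (0.26 ± 0.06), and both were not called without library 1. Shares over all genes tested were 1.64% lower and 1.86% higher. *Malat1*, an abundant nuclear RNA, took 9.12 against 9.09%, 9.74 against 9.52% and 8.61 against 9.26% of the UMIs per cell. Whether intronic reads were counted is not stated, and its part in this trend was not tested. With the ribosomal share matched, the medians of the quintiles lay between -0.01 and 0.02. *Plcb1*, a phospholipase C that makes IP3, is an example of a long lower gene: it was at 734, 734 and 687 CPM in members and 890, 940 and 912 in matched astrocytes, a log2 fold change of -0.35 ± 0.05 (edgeR, adjusted p = 1.30e-05), and -0.19 ± 0.05 with the ribosomal share matched (edgeR, adjusted p = 0.187).

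**Figure D3:**
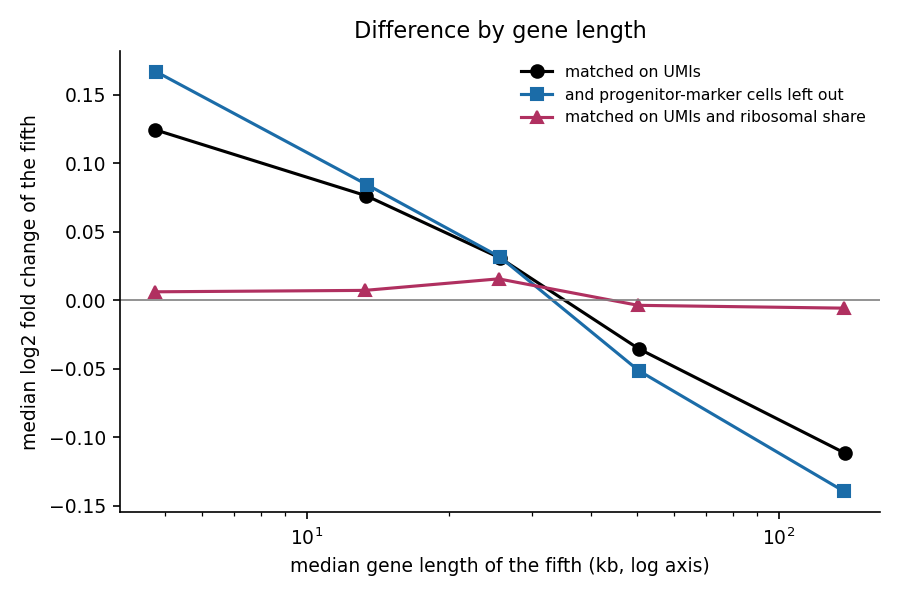
Median log2 fold change of Fos-positive over matched Fos-negative astrocytes (y axis) for quintiles of genes ordered by length (x axis, median length in kb, log axis) in 3 matchings. The medians fall from 0.12 to -0.11 when cells are matched on UMIs, and lie near 0 in each quintile when they are matched on UMIs and ribosomal share.

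The 12 lower genes with the smallest p included genes known from dividing and from immature cells. *Top2a* and *Mki67*, which mark cell division, had 0 UMIs in 280 members and 534 and 302 UMIs in the 1400 matched astrocytes. The histone gene *Hist1h3c* had 0 against 249 UMIs and *Hist1h1b* had 1 against 651. *Sox11*, a factor of immature neurons, had 65 against 1176, *Sox4* 69 against 1054, *Stmn1* 110 against 1769, *Tmsb10* 12 against 662 and *Tmsb4x* 465 against 4852. *Hmgb2*, *Pclaf* and *Hist1h2ae* completed the 12. *Top2a*, *Mki67*, *Hist1h3c*, *Hist1h1b*, *Hist1h2ae*, *Pclaf* and *Tmsb10* passed the filter on low counts through the matched cells, where they are high. Their tests are thus a description only, although they are counted among the lower genes.

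These molecules sat in a few matched cells, so no fold is given for the genes without a UMI in members. The *Top2a* UMIs were in 15 matched cells, with 132 in a single one, and the *Hist1h3c* UMIs in 14, with 63 in a single one. With over 3 UMIs of progenitor genes other than *Egfr*, 25 of 1400 matched cells and 5 of 280 members stood out, and those matched cells held 99.8% of the *Top2a* UMIs, 97.1% of the *Hist1h1b* UMIs and 69.3% of the *Tmsb4x* UMIs. Such cells were deep, with a median of 23345 UMIs. They were 1.79% of members and 1.79% of matched cells, with 2, 0 and 3 members in libraries 1, 2 and 3 against 7, 7 and 11 matched cells. Cells with over 3 UMIs of *Top2a* and *Mki67* were 13 of the 1400 matched and 0 of the members, a count of 0 that allows up to 3 of 280.

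Without the cells over that limit, 366 genes were higher (3.12%) and 298 lower (2.54%) of 11741, and none of the 12 genes was called, those with the fewest UMIs being too rare to test. *Tmsb4x* then had a log2 fold change of 0.24 ± 0.10 (edgeR, adjusted p = 0.170). In a fit that gave every cell the same weight, by limma on the mean over cells of log2(1 + UMIs per 10000), 532 genes were higher (4.46%) and 226 lower (1.90%). Ribosomal protein genes, of which 0 of 80 tested were called with all cells, were higher in 54 of 80 without the progenitor-marker cells and in 59 of 80 with cells weighted equally. All of these settings were added after seeing the data.

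Immediate early genes other than *Fos* were mostly too rare to test. Of 37 in the files 15 were above the filter on low counts. The 280 members and the 1400 matched astrocytes held few UMIs of the best-known of the others. *Egr1* had 4 and 6 UMIs, *Arc* 2 and 2, *Npas4* 1 and 0, *Fosb* 0 and 2, and *Junb* 15 and 18. These are sums over unequal numbers of cells, 5 matched cells to each member, and not levels per cell. Of the 15 tested 0 were called, 12 had a positive log2 fold change, and the median was 0.30. Of all 11921 genes tested 1.86% were called higher and 1.64% lower, 6007 had a positive log2 fold change, and the median was 0.002.

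The nearest to the threshold was *Klf6*, an early response zinc finger factor, at 20.8, 30.2 and 34.0 CPM in members and 17.2, 17.3 and 21.7 in matched astrocytes. Its log2 fold change was 0.60 ± 0.18 (edgeR, adjusted p = 0.0567). *Jun*, whose product is the partner of Fos in AP-1, was at 47.9, 23.1 and 52.8 CPM against 35.8, 24.7 and 29.6, so library 2 showed no excess, and had a log2 fold change of 0.47 ± 0.16 (edgeR, adjusted p = 0.0895). *Btg1*, an early gene that restrains growth, had one of 0.30 ± 0.10 (edgeR, adjusted p = 0.0708). Single libraries moved these values: *Btg1* was at 0.15 without library 1 (edgeR, adjusted p = 0.651) and 0.41 without library 2 (0.0237), *Jun* at 0.64 without library 2 (0.0242) and 0.22 without library 3 (0.753), and *Klf6* at 0.71 without library 1 (0.0482). Without the progenitor-marker cells these 3 genes were called and no other of the list, with edgeR's adjusted p of 0.0411 for *Klf6*, 0.0417 for *Jun* and 0.0217 for *Btg1*. In that fit 3.12% of all genes tested were higher. Matched on ribosomal share, 0 of 18 tested were called and the median was 0.27, against 0.003 over all genes tested.

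Among 17 genes of MAPK feedback and ETS factors, which respond to growth factor signals, 0 were called and the median was 0.02. *Dusp6*, a phosphatase that ends ERK signalling, had a log2 fold change of 0.44 ± 0.20 (edgeR, adjusted p = 0.261). Of 13 heat shock and stress genes 0 were called, and 4 were higher without the progenitor-marker cells, the chaperones *Hsp90aa1*, *Hsp90ab1*, *Hspa8* and *Dnaja1*. That fit called 3.12% of all genes tested higher. *Hspa1a* and *Hspa1b*, which rise when cells are stressed, had 2 and 1 UMIs in the 280 members and 5 and 4 in the 1400 matched astrocytes. The set of cyclic AMP and CREB genes gave 1 higher gene, *Pde10a*, and 1 lower, the adenylyl cyclase *Adcy8* (-0.37 ± 0.11, edgeR, adjusted p = 0.0423), of 23 tested. With all cells, 1.86% of all genes tested were higher and 1.64% lower.

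Against 1.86% higher and 1.64% lower over all genes tested, 3 of 21 IP3 and calcium genes were lower and 1 was higher. The lower ones were *Plcb1*, given above, *Plcb4* (-0.24 ± 0.07) and *Rcan2*, a calcineurin regulator (-0.65 ± 0.14), all by edgeR with an adjusted p under 0.05. With the ribosomal share matched none of these 3 was called: *Rcan2* was then at -0.59 (edgeR, adjusted p = 0.0786), close to its first value, and *Plcb4* at -0.03 (edgeR, adjusted p = 0.994). Left out alone, library 1 ended the calls of *Plcb4*, *Rcan2* and *Adcy8*, and libraries 2 and 3 those of *Plcb4* and *Adcy8*.

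Of the 9 adrenoreceptors, through which noradrenaline acts, 4 were tested and 0 were called. *Adrb1*, the cyclic AMP-coupled form, was at 21.7, 27.6 and 27.1 CPM in members and 22.4, 22.0 and 23.7 in matched astrocytes, a log2 fold change of 0.17 ± 0.18 (edgeR, adjusted p = 0.752). It was detected in 25.3, 24.7 and 28.7% of members and 21.9, 21.8 and 23.5% of matched astrocytes. *Adra1a*, the calcium-coupled form, was at 58.8, 53.3 and 66.0 CPM against 60.4, 71.7 and 70.3, with -0.18 ± 0.12 (edgeR, adjusted p = 0.516). *Adra1b* had -0.61 ± 0.36 (edgeR, adjusted p = 0.425) on 21 and 160 UMIs, and *Adra2a* was the fourth gene tested. *Adra1a* and *Adra1b* were lower than in matched astrocytes in each library by their CPM, without passing the test.

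*Igfbp2*, which encodes a secreted protein that binds insulin-like growth factors, was higher in members. Its level was 137 CPM in members and 118 in matched astrocytes of library 1, 146 and 93.9 in library 2, and 115 and 96.3 in library 3. Members exceeded their own matched cells in each library, while the lowest member value was below the matched value of library 1. The log2 fold change was 0.37 ± 0.09 (edgeR, adjusted p = 0.0133). It was 0.24 without library 2 (edgeR, adjusted p = 0.317) and 0.22 ± 0.09 with the ribosomal share matched (edgeR, adjusted p = 0.754).

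*Igfbp2* was detected in 43.4, 40.4 and 38.0% of members and in 38.6, 33.7 and 37.8% of matched astrocytes, against under 1% of pericytes (0.721, 0.801 and 0.590%). The other 4 genes of the IGF list that were tested, *Igfbp5*, *Igf1r*, *Igf2r* and *Insr*, were not called.

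Glucocorticoid targets gave 2 higher genes of 18, *Mt1* and *Mt2*, and 0 lower, against 1.86% higher and 1.64% lower over all genes tested. *Fkbp5*, a chaperone gene that glucocorticoids induce, had a log2 fold change of -0.57 ± 0.19 (edgeR, adjusted p = 0.0756). It was -0.89 without library 2 (edgeR, adjusted p = 0.0178) and -0.31 without library 3 (0.584), and in library 2 it was detected in more members (31.5%) than matched cells (24.5%). Of 18 clock genes *Dbp*, a clock output factor, was higher (0.40 ± 0.10) and *Rora*, which encodes a nuclear receptor that activates *Bmal1*, was lower (-0.25 ± 0.05). *Dbp* and *Rora* were not called with the ribosomal share matched, nor was *Dbp* without library 3 (edgeR, adjusted p = 0.206). With mice as replicates the log2 fold change of *Dbp* turned to -0.36.

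Genes for synapses and region were counted against shares of 1.86% higher and 1.64% lower over all genes tested. Of 23 synaptogenic and adhesion genes 0 were higher and 2 lower, *Cadm1* (-0.19 ± 0.05) and *Nrxn3* (-0.44 ± 0.13), and of 15 glutamate and GABA receptor genes *Gria1* was the single one called. *Nrxn3* was higher in the members of library 2, at 129 against 112 CPM, and its log2 fold change was -0.13 without library 1 and -0.81 without library 2. Of 12 regional transcription factors *Lhx2* (0.34 ± 0.08) and *Dbx2* (0.26 ± 0.07) were higher and 0 were lower, with a median of 0.19. Of 7 neuronal genes tested *Rbfox3* and *Tubb3* were lower, each with 5 UMIs in members and 123 and 120 in matched cells, and too rare to test once the progenitor-marker cells were left out. Both passed the filter on low counts through the matched cells, where they are high, so their tests are a description only. *Cadm1*, *Nrxn3*, *Lhx2*, *Dbx2*, *Rbfox3* and *Tubb3* were each not called without library 1 or without library 3. The oligodendrocyte, OPC, microglial, endothelial, pericyte, fibroblast and ependymal lists gave 0 calls.

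**Figure D4:**
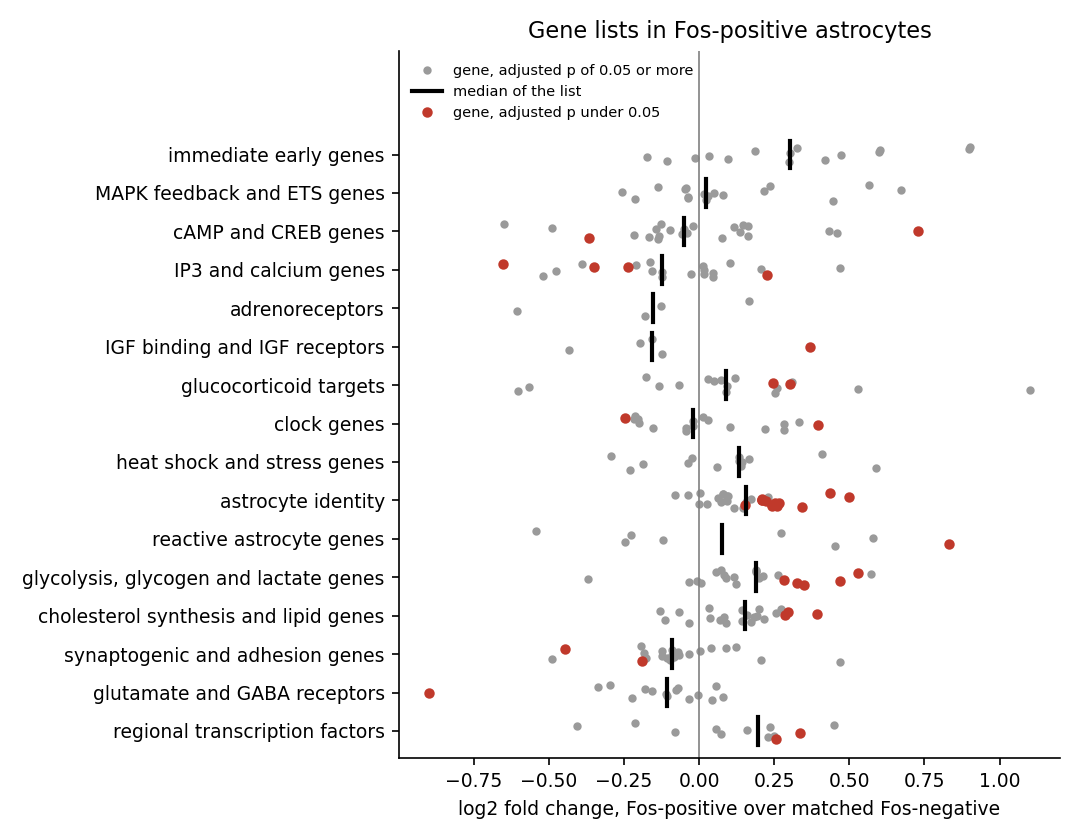
Log2 fold change of Fos-positive over matched Fos-negative astrocytes (x axis) for the tested genes of 16 lists (y axis). Each point is a gene, red where edgeR's adjusted p was under 0.05, and the bar is the median of the list, which is 0.30 for immediate early genes and 0.15 for astrocyte identity genes.

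The study divided its astrocytes into 4 clusters, AST1 to AST4, and listed leading genes of each, which rest on these cells, so the counts are no independent evidence of direction. Of 19 AST1 genes tested 1 was higher, *Igfbp2*, against 1.86% higher and 1.64% lower over all genes tested. Of 20 AST2 genes 5 were lower, *Gria1*, *Erbb4* (-0.28 ± 0.06), *Kcnd2* (-0.24 ± 0.05), *Kcnip4* (-0.34 ± 0.09) and *Nrxn3*, with a median of -0.22. Of 20 AST3 genes 3 were higher, *Mt1*, *Mt3* and *Fabp5*, a fatty acid binding protein gene (0.33 ± 0.06), with a median of 0.07. Of 20 AST4 genes 1 was higher, *Pde10a*, and 3 were lower, *Fgf13* (-0.33 ± 0.08), *Glis3* (-0.24 ± 0.06) and *Rgs7* (-0.25 ± 0.05). *Kcnip4* was not called without library 1, *Fgf13* without library 1 or 2, *Glis3* without library 2 or 3 and *Kcnd2* without library 3. Without the progenitor-marker cells 18 of 20 AST3 genes were higher, against 3.12% of all genes, and with the ribosomal share matched 0 were. Most AST3 genes encode ribosomal proteins, so the 18 of 20 largely repeats the count of the ribosomal protein genes above. The 0 was largely set by matching on their share and says little about AST3.

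Because Fos acts through the AP-1 motif, the promoters of the called genes were searched for it, TGAGTCA or TGACTCA on either strand. RefSeq windows were matched for 173 of the 222 higher genes, 148 of the 195 lower genes and 9246 of the genes tested. The motif was in 5.43% of 221 windows of higher genes, in 3.07% of 228 windows of lower genes, in 3.39% of windows of all genes tested and in 5.20% of all promoter windows. *Igfbp2* was among the genes with a match, and the window of the second of its 2 RefSeq starts is shown for that reason, on GRCm38.p6, plus strand, chr1:72825137-72825436, with the motif in capitals at 39 bases before the start.
Igfbp2: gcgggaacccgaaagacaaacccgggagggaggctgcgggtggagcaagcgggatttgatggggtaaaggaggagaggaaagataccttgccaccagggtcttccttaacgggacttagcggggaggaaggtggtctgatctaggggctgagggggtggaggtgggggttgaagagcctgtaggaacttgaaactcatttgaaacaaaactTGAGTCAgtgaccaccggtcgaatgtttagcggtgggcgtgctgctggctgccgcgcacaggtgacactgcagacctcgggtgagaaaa
Neither window of *Pde10a* held the letters. A match is a description of the sequence, not a site.

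Mice could be compared where hashtags named them. Among the 4 NoFC mice, 2.22, 2.20, 2.96 and 3.75% of the astrocytes had a *Fos* UMI, and among the 4 FC mice 5.94, 2.78, 5.66 and 7.46% did. The values were 3.77, 4.62, 4.81 and 2.75% in the NoFR mice and 1.92, 2.27, 3.95 and 3.51% in the FR mice. Over all libraries the groups overlapped, with 1 FC mouse among the NoFC values. Within libraries 1 and 2 each FC mouse lay above each NoFC mouse and each FR mouse of its own library. In library 1 both NoFR mice, at 3.77 and 4.62%, lay above FC mouse 2, at 2.78%. A mouse held 1 to 12 Fos-positive cells, and the shares were not matched on depth. Median UMIs per astrocyte in library 1 were 11766.5 and 10683.5 in FC, 10244 and 9779 in FR and 11999 and 9302 in NoFC mice. In library 2 they were 10636 and 10807 in FC, 11000 in FR and 10641 in NoFC mice. The shares rest on few cells, the 70 of 102 singlet members whose hashtag the table lists (31 of 32, 20 of 31 and 19 of 39 in libraries 1, 2 and 3), with 12 Fos-positive of 419 NoFC astrocytes, 24 of 466 FC, 15 of 384 NoFR and 19 of 624 FR astrocytes.

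**Figure D5:**
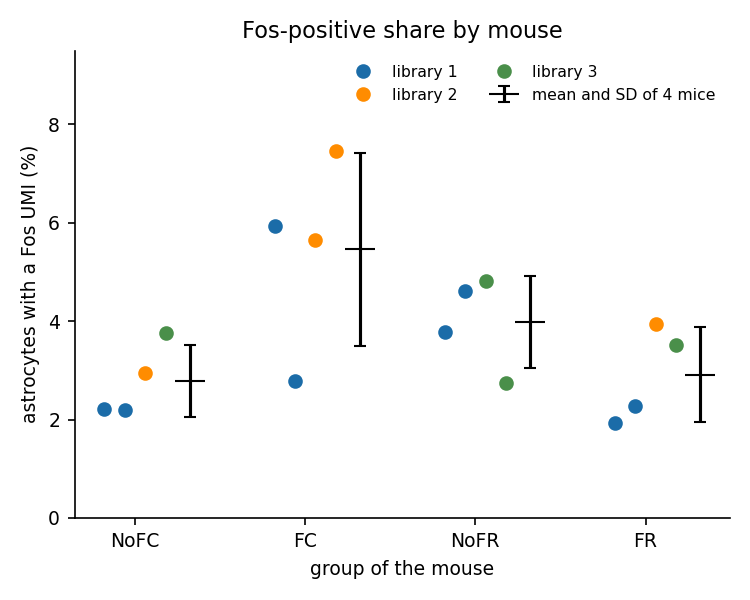
Share of astrocytes with a Fos UMI (y axis, percent) in single mice of the NoFC, FC, NoFR and FR groups (x axis). Points are mice coloured by library, and the crosses with bars are the mean and SD of 4 mice, from 2.78% in NoFC to 5.46% in FC.

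The mean was highest in FC mice, at 5.46 ± 1.96%, followed by NoFR with 3.99 ± 0.938%, FR with 2.91 ± 0.969% and NoFC with 2.78 ± 0.735% (SD, n = 4 mice each). FC minus NoFC was 2.68 percentage points and FR minus FC was -2.55, each with a 2-sided exact permutation p of 0.0857, or 0.229 after Benjamini-Hochberg adjustment over 6 pairs. The other pairs had exact permutation p-values of 0.114 (NoFR and NoFC), 0.171 (FR and NoFR), 0.2 (NoFR and FC) and 0.857 (FR and NoFC). These tests took no account of the library. No pair passed the threshold, with 0.0286 as the smallest p that 4 mice against 4 allow. The order of the lower groups was not stable: FR minus NoFR was -1.07 percentage points but 0.536 at a hashtag quantile of 0.95, and FR minus NoFC was 0.132 but turned negative when FR mouse 3 or 4 or NoFC mouse 1 or 2 was left out (-0.213 to -0.0548). Within library 1, which held 2 mice of each group, FC averaged 4.36%, NoFR 4.19%, NoFC 2.21% and FR 2.10%. Within library 2 they were 2.96% in its NoFC mouse, 6.56% in its 2 FC mice and 3.95% in its FR mouse, and within library 3 they were 3.75% in its NoFC mouse, 3.78% in its 2 NoFR mice and 3.51% in its FR mouse.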

How the data were processed

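Sorted amygdala cells of mice, 16 of them listed with their hashtags, were sequenced in 3 droplet libraries with matched hashtag libraries. For every barcode the authors deposited raw counts, as UMIs of genes and of hashtags, made with Cell Ranger 3.0 on mm10 according to the submitters' processing notes, while the headers of the 3 matrices name Cell Ranger 7.0.0. The versions differ in whether intronic reads are counted by default, and the setting used is not stated. All later steps were computed from these counts. Members and gene lists were chosen with earlier results of these data known.

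Cells were selected as described, with no hashtag call and no removal of doublets in the main comparison. Counts were summed per library and *Fos* status, giving 6 sums, for members and for the 5 nearest Fos-negative astrocytes of the library in total UMIs, drawn without replacement. Genes were tested with edgeR 4.0.16 (quasi-likelihood, TMM, filterByExpr, R 4.3.3), with the library as a block and Benjamini-Hochberg adjustment at 0.05. The pairing comes from the design, since both kinds of cell of a library share its preparation. The p-values and SEs of edgeR rest on 3 pooled libraries, with a spread estimated in part from all genes together. They do not measure the spread between mice or between single cells. Library values are given as CPM, UMIs per 1000000 of the sum. limma 3.58.1 and DESeq2 1.42.0 served as alternatives. Across all genes, up to 12 genes per direction were named, those with the smallest p and the same sign in 3 of 3 libraries, besides any gene of the lists. Some genes counted in the lists are not reported here by name. On simulated data for the main comparison, with 11921 genes, 79.8% of 99 genes changed 2-fold and 39% of 100 genes changed 1.5-fold were called.

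Hashtags were called with HTODemux of Seurat 5.3.0 at a quantile of 0.99, and doublets also with Scrublet in scanpy 1.11.5. Mice were taken from the deposited hashtag table and compared by exact permutation tests. Gene spans were matched for 99.97% of genes. UMIs are counted molecules, so shares carry 95% Wilson intervals. The alternatives are listed at the end of the text with their values.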

Additional observations from a re-analysis of the deposited data

Results flagged for a closer look

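The number of astrocytes assigned by hashtag to 1 NoFR mouse, 65, lay far below the other 3 mice of its group, at 104, 106 and 109. With 4 values per group, chance marks about 1 in 20 groups in this way. Its share of astrocytes with a *Fos* UMI, 4.62%, lay between those of the other NoFR mice. In other groups some mice had fewer assigned astrocytes, 45 in NoFC mouse 1 and 53 in FC mouse 3.

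*Fos* UMIs also occurred outside the astrocyte class. They were found in 0.2343% of pericyte barcodes, 5 of 2134, and in 0.7203% of the barcodes of neither class, 6 of 833.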

How the results depend on the processing

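The count of 417 genes (222 higher, 195 lower) stayed within 1.5 times under 10 nearest cells, no matching, TMMwsp, no filter on low counts, no mitochondrial filter, stricter astrocyte limits, and without cells bearing other markers or doublets (300 to 514 genes). It was 124 with 1 nearest cell, 190 when matched on genes detected, 117 for at least 2 *Fos* UMIs against 0, 48 after thinning to 8000 UMIs and 146 with DESeq2, which gave no adjusted p for 11093 genes, and where 68.5% of calls were higher against 53.2%. The higher share was 31.2% after thinning, 34.6% with no filter and 39.5% with 1 nearest cell, 43.2% when matched on genes detected and 70.2% with equal weights. The cause was not tested. Without the replicate block, which pairs both sums of a library, it was 162. With mice as replicates 0 of 2380 genes were called by edgeR, with 81 at an unadjusted p under 0.05. Leaving out a library gave 228 to 332 genes. The 311 genes called without cells bearing other markers held 85 of the 222 higher and 53 of the 195 lower genes.

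Chosen after seeing the data, leaving out cells with over 3 progenitor UMIs gave 664 genes, weighting cells equally 758, matching on ribosomal share 8, that matching without the progenitor-marker cells 6 and with equal weights 4, all of them higher.

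Signs turned for named genes, as log2 fold changes: -0.19 for *Nkain2* with at least 2 *Fos* UMIs; 0.066 for *Tmsb4x* with equal weights; 0.55 for *Tmsb4x*, 0.52 for *Stmn1*, 0.15 for *Sox4* and 0.39 for *Hmgb2* without cells bearing other markers. Without the progenitor-marker cells they were 0.24 for *Tmsb4x*, 0.18 for *Stmn1* and 0.17 for *Hmgb2*. Matched on ribosomal share they were -0.00061 for *Mt3*, -0.032 for *Mt1*, 0.22 for *Tmsb4x*, -0.070 for *Mt2* and -0.028 for *Apoe*. In that matching without the progenitor-marker cells they were -0.016 for *Mt1*, 0.089 for *Tmsb4x*, 0.15 for *Stmn1*, -0.051 for *Mt2*, -0.024 for *Apoe* and 0.019 for *Erbb4*. In that matching with equal weights they were 0.055 for *Tmsb4x*, 0.030 for *Stmn1*, 0.0062 for *Hist1h2ae*, 0.0021 for *Pclaf*, -0.053 for *Mt2*, -0.031 for *Apoe* and 0.0020 for *Adra1a*. With mice as replicates they were -0.20 for *Pde10a*, -0.023 for *Id3*, -0.095 for *Mt2*, -0.037 for *Apoe*, -0.0066 for *Aqp4*, -0.36 for *Dbp* and 0.039 for *Erbb4*.

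The share of Fos-positive astrocytes in libraries 1, 2 and 3 was 0.241, 0.598 and 0.927% with at least 2 *Fos* UMIs and 1.77, 2.29 and 3.11% after thinning. FR minus NoFR turned to 0.536 percentage points at a hashtag quantile of 0.95. Leaving out single mice, FC minus NoFC ranged from 2.01 to 3.57, FR minus FC from -3.44 to -1.88, FR minus NoFC from -0.213 to 0.462, FR minus NoFR from -1.49 to -0.744, NoFR minus FC from -2.37 to -0.806 and NoFR minus NoFC from 0.932 to 1.62. At 1 to 4 *Fos* UMIs per member, cells without a *Fos* UMI cannot be called free of *Fos* RNA.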
